A study of Mus musculus with 9 samples.

Results

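The genes described are 42 members of the NF-kB pathway, the acute phase response and the inflammatory genes these control, out of 28932 genes listed for mouse Hepa 1 WT hepatoma cells. Each member was found by its gene symbol, and the transcript with the highest mean read count over the 9 libraries stood for it. The choice of members used no measured value of the comparisons, although it was made with earlier results of these data known.

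RNA sequencing of total RNA was done after 6 h in 3 groups of 3 libraries each: control, FICZ at 10 nM and tryptamine at 50 uM. FICZ, which light makes from tryptophan, is a strong ligand of the AhR, the aryl hydrocarbon receptor, a transcription factor switched on by small molecules. Tryptamine is a monoamine made from tryptophan, which the series' title calls a proligand of the AhR that needs monoamine oxidases. The controls are labelled untreated, while the treatment protocol speaks of vehicle. All groups are of 1 cell line, named Hepa 1 WT by its source and HC1C by the cell line label. The labels do not say that the libraries of a group came from separate cultures, so p-values measure only the spread between these libraries, which may be technical.

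NF-kB is a family of dimeric Rel transcription factors that IkB proteins hold in the cytoplasm. Signals from TNF and interleukin-1 receptors, relayed by TRAF and IAP adaptors, lead to the loss of IkB, after which the dimers switch on chemokines, adhesion molecules, survival genes and their own inhibitors. In the liver, interleukin-6 acting through its receptor and STAT3, together with C/EBP factors, drives the acute phase proteins that hepatocytes secrete. The AhR can bind Rel proteins as well as its usual partner ARNT, and these genes are therefore often examined in cells given AhR ligands.

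Total counts over genes ran from 11594786 to 16715843 per library. Control replicate 3 had the smallest total and stood apart: its log CPM (counts scaled to library size, TMM-adjusted) correlated across genes with the other libraries at 0.959 to 0.965, against at least 0.99 among those. Against the other controls, its median log2 difference was 0.63 for transcripts no longer than 1000 nt and -0.85 for those over 6000 nt. Results are therefore given with this library, and without it where stated. The figure of fitted changes shows both fits for every tested member. Cyp1a1, the usual readout of the AhR, had 59.2 ± 4.31 CPM in control (SD, n = 3), against 1002.8 ± 45.2 under FICZ and 703.2 ± 44 under tryptamine. Of 6 hepatocyte markers, Apoa1, Ttr and Hnf4a had 0 counts in all libraries, while albumin (Alb) stood at 253.7 ± 19.2 CPM in control and Trf and Afp were counted too. The summed hepatocyte markers ran from 783.8 to 984.8 CPM in control, from 770.4 to 792.2 with FICZ and from 756.8 to 781.8 with tryptamine. The leukocyte and macrophage list summed to 79.6 to 119.2 CPM in control, 83 to 86 with FICZ and 86.7 to 89.6 with tryptamine. In control its Csf1r stood at 57.1 ± 13.9 CPM, Cd14 at 20 ± 5, Lyz2 at 13.7 ± 2.5 and Cd68 at 3.54 ± 0.985. Itgam was at 0.602 ± 0.124 CPM there, Ptprc had 17 counts over the 9 libraries, and Emr1 and Cd3e had 0 throughout. The fibroblast list summed to 931.7 to 1274.6, 1233.1 to 1360.6 and 1192.2 to 1375.1 CPM in control, FICZ and tryptamine, and the endothelial list to at most 1.29 CPM. Col1a1 made up most of the fibroblast sum, at 1087.3 ± 182.4 CPM in control, while Col1a2 had 11 counts over the 9 libraries. Pdgfrb, Des and Acta2 stood at 47.6 ± 11.8, 12.1 ± 3.87 and 1.87 ± 0.431 CPM in control. The part of these differences in the results below was not tested. In bulk libraries, fewer cells that express a gene and less RNA per cell cannot be told apart.

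Of the 42 members, 37 passed the filter on low counts and were tested beside 12335 other genes. With edgeR's quasi-likelihood test and Benjamini-Hochberg adjustment over all 12372 genes, 2 members rose with FICZ, Tnfaip2 and Gsdmd, and 0 fell. Over all genes tested 0.113% rose with FICZ and 0% fell. With tryptamine 0 members passed, where 0.00808% of all genes tested rose and 0% fell. Between FICZ and tryptamine 0 members passed, against 0% of all genes in either direction.

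The sequences that follow are the 250 bases before the transcription start of Tnfaip2, which rose with FICZ, of Ccl17, the member with the lowest fitted changes, and of Cebpb and Cx3cl1, whose calls changed when control replicate 3 was left out. They are RefSeq sequence of the build GRCm38.p6, written 5′ to 3′, and 33 of the 42 members had such a window. Capitals mark matches on either strand to GCGTG, the core that the AhR with ARNT binds, or to the general NF-kB consensus. The windows lie on the plus strand at chr12:111442411-111442660 for Tnfaip2, chr8:94810203-94810452 for Ccl17, chr2:167688665-167688914 for Cebpb and chr8:94771930-94772179 for Cx3cl1.
Tnfaip2: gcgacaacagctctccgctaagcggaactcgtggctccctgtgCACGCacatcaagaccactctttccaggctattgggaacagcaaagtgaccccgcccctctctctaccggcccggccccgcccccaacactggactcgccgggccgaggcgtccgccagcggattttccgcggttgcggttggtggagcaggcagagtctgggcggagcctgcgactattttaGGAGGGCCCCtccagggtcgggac
Ccl17: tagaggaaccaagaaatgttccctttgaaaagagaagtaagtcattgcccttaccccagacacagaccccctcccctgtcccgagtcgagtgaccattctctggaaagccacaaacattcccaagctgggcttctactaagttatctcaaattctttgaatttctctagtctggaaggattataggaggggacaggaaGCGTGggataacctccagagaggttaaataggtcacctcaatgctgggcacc
Cebpb: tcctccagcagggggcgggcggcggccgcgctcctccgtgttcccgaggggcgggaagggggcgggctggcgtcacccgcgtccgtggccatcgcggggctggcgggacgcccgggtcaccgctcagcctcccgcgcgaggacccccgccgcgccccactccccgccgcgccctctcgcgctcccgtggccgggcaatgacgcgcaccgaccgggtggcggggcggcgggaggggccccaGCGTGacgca
Cx3cl1: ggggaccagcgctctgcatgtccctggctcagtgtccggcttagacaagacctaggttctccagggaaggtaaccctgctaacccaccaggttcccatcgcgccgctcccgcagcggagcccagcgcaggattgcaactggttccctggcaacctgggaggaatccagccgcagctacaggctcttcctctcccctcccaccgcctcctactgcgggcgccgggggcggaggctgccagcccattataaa
The Tnfaip2 window held 1 GCGTG core on the minus strand, beginning 207 nt before the start, and 1 NF-kB consensus match 24 nt before it, and the 2 do not overlap. Ccl17 held 1 GCGTG core at 52 nt before the start and Cebpb 1 at 10 nt, neither with an NF-kB match, and Cx3cl1 held neither motif. GCGTG lay in 11 of the 33 member windows, 33.3%, against 28.2% of 27025 windows of this length. The NF-kB consensus lay in 9 of the 33, 27.3%, against 7.01% of all windows, and these 9 were Csf1, Il6, Cxcl1, Tnfaip3, Tnip1, Nfkbia, Tnfaip2, Nfkbie and Nfkb2. Of these 9, Tnfaip2 alone was called with FICZ. Gsdmd, the other member called, had no window and was not searched. A match describes letters in the window and does not show binding.

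Before any comparison, the members differed widely in abundance. Per kilobase of transcript, averaged over the 9 libraries, the TNF receptor Tnfrsf1a was highest at 89.4 CPM per kb, followed by Gsdmd at 61.2 and the chemokine Ccl2 at 53.2. The Rel genes Nfkb1, Rela and Nfkb2 came next at 43, 42.9 and 42 CPM per kb, an order within the spread of their libraries. Il6st followed at 29.2, Vcam1 at 27.8, Csf1 at 27.6, Tnip1 at 24.4 and C3 at 20.8 CPM per kb. Tnfaip2, the member with the highest fitted rise, was among the scarce ones at 1.5 CPM per kb, rank 34 of 42, beside Ccl17 at 1.59.

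**Figure D1:**
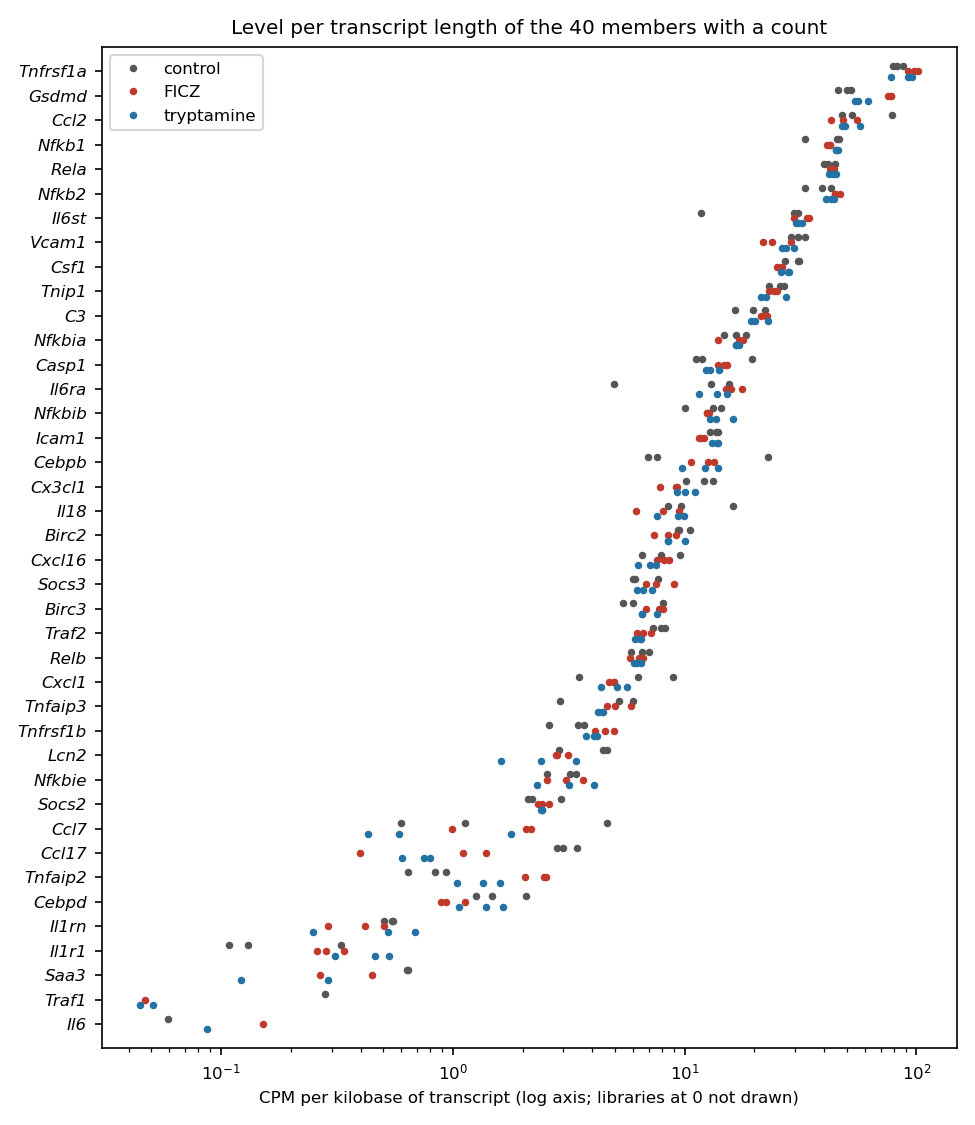
Level of each member with a count, in CPM per kilobase of transcript on a log axis, with 1 point per library and colours for control, FICZ and tryptamine; libraries at 0 are not drawn. Members span from 89.4 CPM per kb for Tnfrsf1a to under 1 for Il1rn, Il1r1, Saa3, Traf1 and Il6, and the lone low points of Il6st and Il6ra and the high one of Cebpb are control replicate 3.

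The other 5 members were not tested. Tnf, the cytokine that heads the TNF pathway, and Saa1, a serum amyloid of the acute phase, had 0 counts in all 9 libraries. If their reads were counted at all, this allows up to 0.179 to 0.259 CPM per library (3 counts, counting error only). Apoa1, Ttr and Hnf4a are listed at 0 as well, and whether such zeros come from the cells or from the counting or annotation was not tested. Saa1 is nearly identical to Saa2, and how the authors' counting shared such reads is not given. Traf1, an adaptor that NF-kB induces, had 8 counts in 4 libraries, Il6 had 10 counts in 3, and Saa3 had 18 counts in 6, with at most 5 counts in a library for each. A fall or a small rise in Traf1, Il6 and Saa3 was not detectable on so few counts.

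The 4 Rel proteins, which form the NF-kB dimers, were all tested and 0 of 4 passed in any comparison. Nfkb1 (gene ID 18033), the precursor of the p50 subunit, had 189.9, 187.9 and 136.7 CPM in controls 1 to 3, 175.1, 168.8 and 174.9 with FICZ and 185.8, 184.5 and 189.7 with tryptamine. All treated libraries lay between the lowest control, replicate 3, and the highest. Its fitted change with FICZ was a log2 of 0.01 (95% interval -0.26 to 0.28), and -0.13 (-0.26 to 0.01) without that library. Across Nfkb1, Nfkb2, Rela and Relb the changes ran from -0.05 to 0.23 with FICZ, all intervals lying between -0.31 and 0.47, and from -0.06 to 0.14 with tryptamine, between -0.32 and 0.39. Nfkb2, the precursor of p52 in the noncanonical pathway, had the highest of these, at 0.23 with FICZ (interval -0.00 to 0.47, adjusted p = 0.601), and its FICZ libraries at 170.4 to 179.9 CPM lay above its controls at 127.0 to 165.1. Without control replicate 3 it was 0.14 (-0.01 to 0.28).

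The inhibitors, several of which NF-kB itself induces, Nfkbia and Tnfaip3 among them, included 0 of 5 that passed. Tnip1 (gene ID 57783), a partner of the ubiquitin-editing enzyme A20, was the most abundant of them per length. It stood at 68.9, 77 and 80 CPM in control, 74.5, 68.8 and 72 with FICZ and 81.2, 63.5 and 66.9 with tryptamine, and the groups overlapped. Nfkbia, which encodes IkB alpha, had 26.2 ± 2.79 CPM in control (SD, n = 3), against 25.8 ± 3.38 under FICZ and 26.6 ± 0.48 under tryptamine, and a fitted change of -0.02 with FICZ (interval -0.31 to 0.27). Across Nfkbia, Nfkbib, Nfkbie, Tnfaip3 (A20) and Tnip1 the log2 changes ran from -0.07 to 0.13 with FICZ and from -0.12 to 0.18 with tryptamine. Their intervals with FICZ lay between -0.48 and 0.62, so changes of up to about that size were not resolved for the least precise of them. The change of Tnfaip3 with tryptamine was -0.12 (adjusted p = 0.741) with all libraries and -0.37 (interval -0.64 to -0.10, adjusted p = 0.656) without it, that control standing at 12.6 CPM against 26 and 22.5. With FICZ its change went from 0.13 with that library to -0.11 without it.

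Both tested TNF receptors were higher in every FICZ library than in any control, as 8.21% of all genes tested were, and neither passed. Tnfrsf1a (gene ID 21937), the widely expressed death domain receptor, stood at 187.8, 170.6 and 176.8 CPM in control, 219.0, 209.8 and 198.1 with FICZ and 205.3, 198.8 and 167.4 with tryptamine. The fitted change with FICZ was 0.23 ± 0.10 (log2, SE), adjusted p = 0.601 in edgeR's test. Tnfrsf1b (gene ID 21938), the receptor without a death domain, stood at 18, 17 and 12.8 CPM in control, 22.3, 24.4 and 20.1 with FICZ and 20.5, 19.9 and 18.5 with tryptamine, so that both treatments lay above all controls. Its change was 0.48 ± 0.15 with FICZ (adjusted p = 0.601) and 0.30 ± 0.15 with tryptamine (adjusted p = 0.741). Without control replicate 3, its lowest library, these were 0.35 ± 0.13 (adjusted p = 0.322) and 0.16 ± 0.13 (adjusted p = 0.905).

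Among the adaptors that link these receptors to NF-kB, 0 of 3 tested passed. Traf2 (gene ID 22030), a ubiquitin ligase adaptor of both TNF receptors, stood at 22.8, 24.9 and 25.8 CPM in control, 22.4, 20.8 and 19.5 with FICZ and 20.4, 19.1 and 20.1 with tryptamine. Every treated library was below every control, by a fitted -0.23 ± 0.12 with FICZ (adjusted p = 0.601) and -0.30 ± 0.12 with tryptamine (adjusted p = 0.741). Birc2 (gene ID 11797), which encodes the ubiquitin ligase cIAP1, stood at 29.7, 29.5 and 33.2 CPM in control, 23.1, 28.9 and 26.5 with FICZ and 26.5, 31.6 and 26.6 with tryptamine. The FICZ libraries lay below the controls, with a change of -0.23 (interval -0.52 to 0.05), and those with tryptamine overlapped them. Birc3, its paralog cIAP2, had a change of 0.22 (-0.15 to 0.58) with FICZ.

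The genes of interleukin signalling were 5 tested of 6, and 0 passed. Il6st (gene ID 16195), the signal-transducing receptor shared by the interleukin-6 family, stood at 168.6, 160.8 and 64.4 CPM in control, 162.1, 183.6 and 187.3 with FICZ and 164.4, 168.2 and 174.1 with tryptamine. Only control replicate 3 was apart, at 0.391 of the mean of the other controls. Its fitted change with FICZ was 0.43 ± 0.27 with this library and 0.11 ± 0.073 without it. Il6ra, the ligand-binding receptor, was likewise low in that library, at 16.5 CPM against 43.4 and 51.9, and its change with FICZ went from 0.53 ± 0.31 to 0.18 ± 0.11. In the authors' deposited table both genes were higher with FICZ, Il6ra by a log2 of 0.51 (adjusted p = 0.0182) and Il6st by 0.41 (adjusted p = 0.00866). Il1r1, the interleukin-1 receptor, chosen after its values were seen, had the highest change with tryptamine of all members, 1.17 ± 0.43 (adjusted p = 0.741), at 0.896 ± 0.574 CPM in control and 2.05 ± 0.535 (SD, n = 3). Its control replicate 1 at 1.56 CPM lay above a tryptamine library at 1.47. Il1r1 entered the test through its treated libraries, 3 of FICZ and 3 of tryptamine being over the filter on low counts against 1 of control.

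Gsdmd rose with FICZ. It encodes gasdermin D, which caspases of the inflammasome cut to form the membrane pores of pyroptosis. Gsdmd (gene ID 69146) stood at 89.2, 81.7 and 93 CPM in control, 138.0, 133.9 and 137.6 with FICZ and 96, 99.7 and 109.4 with tryptamine. The groups did not overlap anywhere, and tryptamine lay between control and FICZ. FICZ raised it 1.55-fold, a log2 change of 0.63 ± 0.10 (SE; interval 0.42 to 0.85; adjusted p = 0.0388), and without control replicate 3 the change was 0.68 ± 0.079 (adjusted p = 7.84e-06). With tryptamine it was 0.21 ± 0.10 (interval -0.00 to 0.42, adjusted p = 0.741), and 0.25 ± 0.079 (adjusted p = 0.53) without that library. FICZ against tryptamine gave 0.42 ± 0.10 (interval 0.21 to 0.63), which did not pass with all libraries (adjusted p = 1) and did without control replicate 3, at 0.43 ± 0.069 (adjusted p = 0.00235). Control replicate 3 is in neither of these groups, but the fit estimates the spread of a gene over all groups together. The difference between the ligands passed in 4 of 18 alternatives. Besides the fit without that library, these were the 6 libraries of the pair, DESeq2's Wald test and limma voom. The authors' deposited table likewise has Gsdmd higher over control, by 0.58 (adjusted p = 0.000116), and over tryptamine, by 0.43 (adjusted p = 0.00112). The rise with FICZ lost its call when any of the other 8 libraries was left out, at adjusted p from 0.066 (without tryptamine replicate 3) to 0.282 (without FICZ replicate 1) and changes of 0.58 to 0.65. Casp1, a protease that cuts gasdermin D, did not pass. It had 31.4 ± 10.3 CPM in control (SD, n = 3), against 32.5 ± 1.56 under FICZ and 29.1 ± 1.96 under tryptamine. Its change with FICZ was 0.05 ± 0.19, and 0.35 ± 0.11 (adjusted p = 0.23) without control replicate 3, where it stood at 43.3 CPM.

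**Figure D2:**
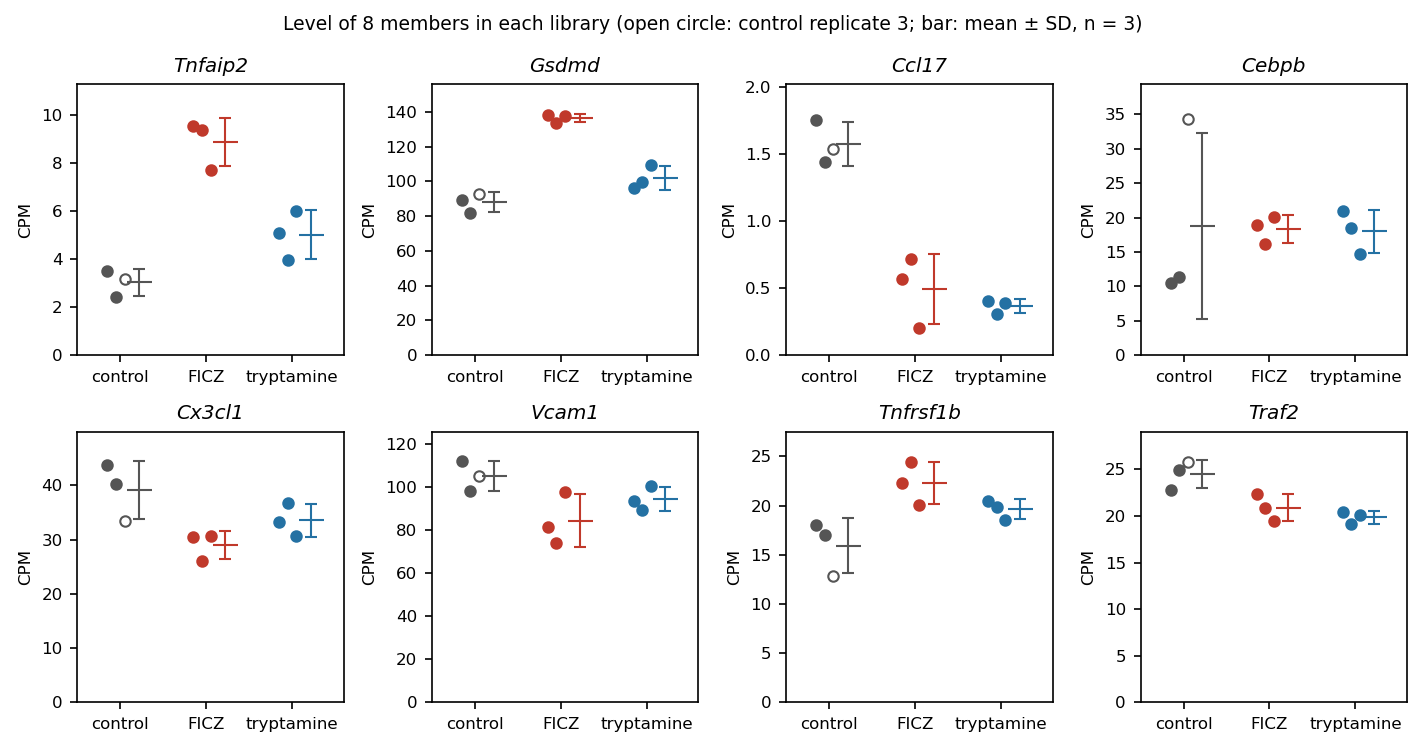
CPM in each library of 8 members by group, with 1 point per library, an open circle for control replicate 3, and the mean with its SD (n = 3) beside the points. Tnfaip2 and Gsdmd separate all 3 groups, with FICZ highest, Ccl17 is lowest in the treated libraries, and the spread of Cebpb in control comes from the open circle at 34.3 CPM.

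Tnfaip2 rose most of the members with FICZ. It encodes M-Sec, a protein that TNF induces and that takes part in membrane nanotube formation. Tnfaip2 (gene ID 21928) stood at 3.52, 2.41 and 3.16 CPM in control, 9.53, 9.35 and 7.72 with FICZ and 5.1, 3.94 and 6 with tryptamine. As for Gsdmd, the 3 groups did not overlap, with tryptamine between. The means of 3.03 ± 0.566 and 8.87 ± 0.996 CPM (SD, n = 3) gave a 2.93-fold rise with FICZ, a log2 change of 1.55 ± 0.23 (SE; interval 1.05 to 2.05; adjusted p = 0.0356). It was 1.58 ± 0.25 (adjusted p = 0.000475) without control replicate 3. With tryptamine, at 5.01 ± 1.03 CPM, the change was 0.73 ± 0.23 (interval 0.22 to 1.25), which did not pass (adjusted p = 0.741, and 0.601 without control replicate 3). FICZ against tryptamine gave 0.82 ± 0.22 (interval 0.34 to 1.29), which did not pass either (adjusted p = 1, and 0.181 without that library). The doses of the 2 ligands differ, 10 nM and 50 uM. In the authors' deposited list of genes higher with FICZ, which names 81 genes, Tnfaip2 is the only member. There 9 of its 12 transcripts are given as regulated, with a mean log2 of 1.49. Their list for tryptamine, of 22 genes, holds 0 members. Leaving out control replicate 1 or 2, any FICZ library or tryptamine replicate 1 or 3 ended the call, at adjusted p from 0.0559 (without tryptamine replicate 3) to 0.255 (without FICZ replicate 2) and changes of 1.41 to 1.68.

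The adhesion molecules that endothelial and other cells show in inflammation had lower values with FICZ and did not pass. Vcam1 (gene ID 22329) stood at 112.1, 98.2 and 105.0 CPM in control, 81.3, 73.8 and 97.8 with FICZ and 93.3, 89.2 and 100.3 with tryptamine. All FICZ libraries lay below all controls, the nearest by a narrow margin, and tryptamine overlapped control. The change with FICZ was -0.32 ± 0.12 (adjusted p = 0.601), and -0.32 ± 0.10 (adjusted p = 0.165) without control replicate 3, while the authors' deposited table gives -0.37 (adjusted p = 0.015). Icam1 had 30.6 ± 1.25 CPM in control (SD, n = 3), against 26.7 ± 0.705 under FICZ and 30.9 ± 0.929 under tryptamine, a change of -0.19 ± 0.10 with FICZ (adjusted p = 0.605) and 0.01 ± 0.10 with tryptamine.

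Of the chemokines and the growth factor Csf1, 7 genes in all, 0 passed with all libraries, and 6 had fitted values below 0 with FICZ and 7 with tryptamine. Without control replicate 3 these counts were 5 and 4 of 7, and Ccl2, Ccl7 and Cxcl1 were high in that library. Ccl2 (gene ID 20296), the monocyte attractant, stood at 38.4, 42.5 and 63 CPM in control, 38.8, 44.6 and 34.5 with FICZ and 38.6, 39.7 and 45.8 with tryptamine, and the groups overlapped. Its change with FICZ was -0.29 ± 0.18 with all libraries and -0.04 ± 0.12 without control replicate 3. Csf1, the macrophage growth factor, stood at 123.9 ± 9.18, 107.8 ± 2.88 and 114.5 ± 4.95 CPM in control, FICZ and tryptamine (SD, n = 3), a change of -0.20 ± 0.094 with FICZ (adjusted p = 0.601) and -0.26 ± 0.073 (adjusted p = 0.117) without that library.

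Cx3cl1, fractalkine, a chemokine that can stay anchored to the cell membrane, did not pass with all libraries and fell with FICZ in the fit without control replicate 3. Cx3cl1 (gene ID 20312) stood at 43.8, 40.2 and 33.4 CPM in control, 30.4, 26 and 30.7 with FICZ and 33.2, 36.8 and 30.7 with tryptamine. The FICZ libraries lay below all controls, and those with tryptamine lay below control replicates 1 and 2 but overlapped replicate 3. The change with FICZ was -0.43 ± 0.14 (adjusted p = 0.601) with all libraries and -0.54 ± 0.11 (interval -0.77 to -0.30, adjusted p = 0.0144) without that one. It was also called with limma voom, which gives control replicate 3 a low weight, at -0.55 (adjusted p = 0.00495). With tryptamine it was -0.22 ± 0.14 (adjusted p = 0.741) and -0.33 ± 0.11 (adjusted p = 0.602) in the same order. FICZ and tryptamine were not told apart, at -0.21 (interval -0.51 to 0.09). The authors' deposited table has Cx3cl1 lower with FICZ, by -0.48 (adjusted p = 0.0144).

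Ccl17, a chemokine that draws T cells through the receptor CCR4, had the lowest fitted changes of the members with either ligand, on few counts. Ccl17 (gene ID 20295) had 26, 21 and 18 counts in control, 8, 12 and 3 with FICZ and 6, 4 and 6 with tryptamine. In CPM these were 1.76, 1.44 and 1.54, then 0.569, 0.715 and 0.205, then 0.408, 0.309 and 0.387, with every treated library below every control. Summed, 65 control counts stood against 23 with FICZ, a ratio of 0.314 per unit of depth (0.186 to 0.512, exact 95% interval for counting error only), and 16 with tryptamine, a ratio of 0.233 (0.126 to 0.407). It entered the test through its control libraries, 3 of which were over the filter on low counts against 1 with FICZ and 0 with tryptamine. The fitted changes of -1.64 ± 0.43 with FICZ (adjusted p = 0.524) and -2.07 ± 0.46 with tryptamine (adjusted p = 0.741) did not pass, nor did those without control replicate 3, -1.66 ± 0.55 (adjusted p = 0.24) and -2.09 ± 0.58 (adjusted p = 0.314). The authors' deposited tables call it lower with both, at -1.72 (adjusted p = 0.0329) and -2.16 (adjusted p = 0.0325). Both comparisons share the same 3 controls.

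**Figure D3:**
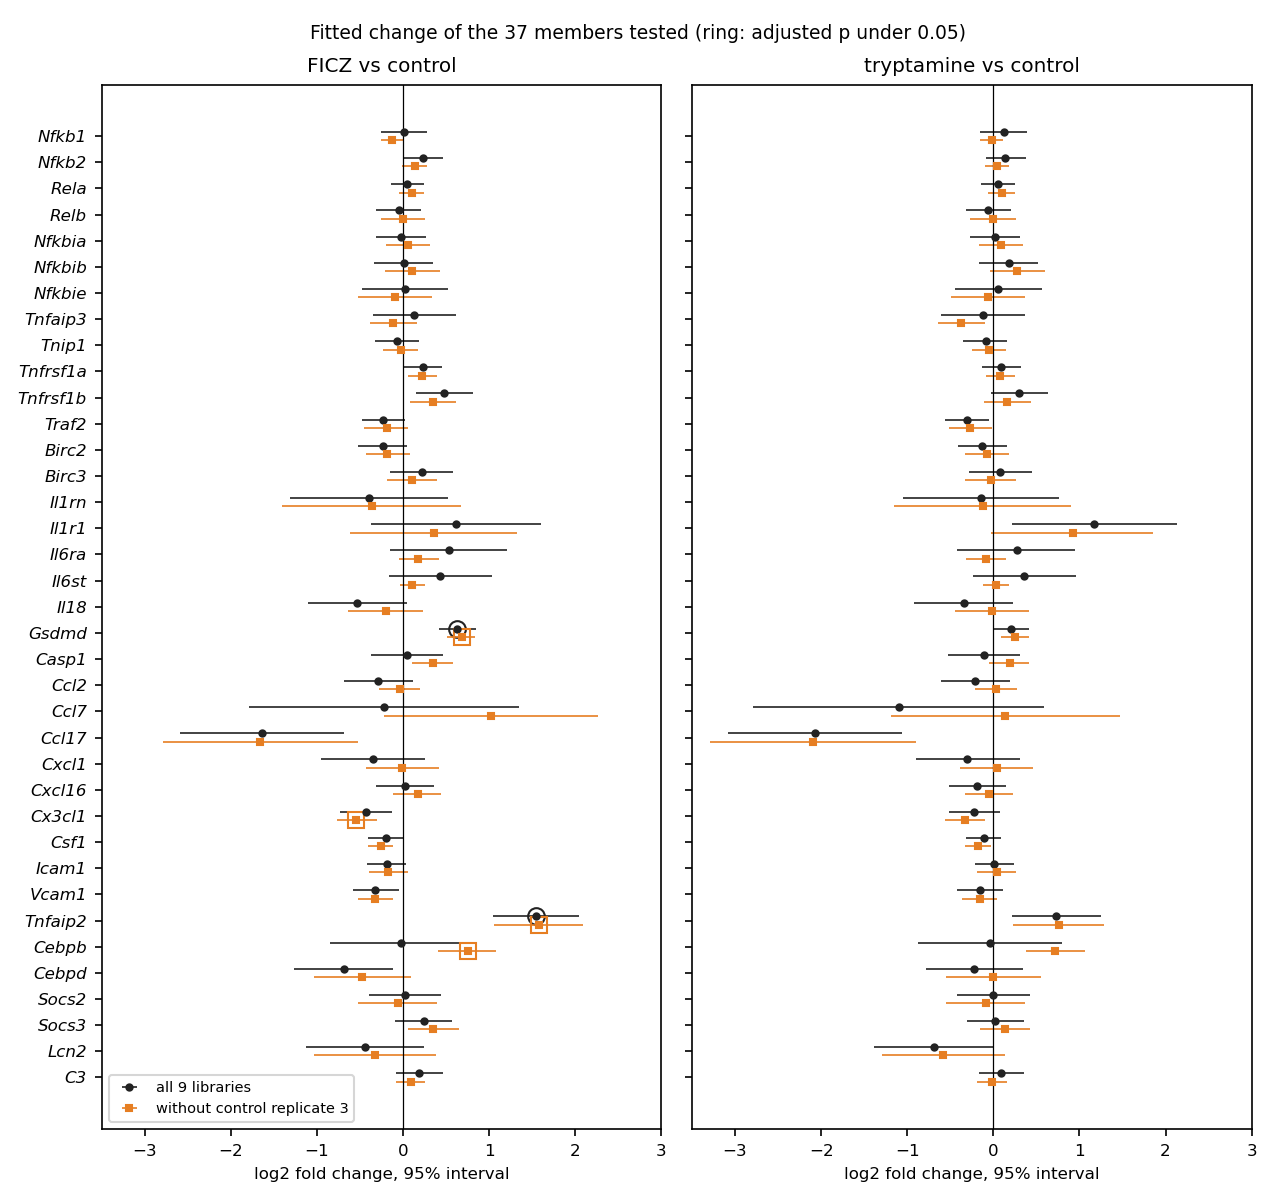
Fitted log2 fold change of the 37 tested members against control, FICZ on the left and tryptamine on the right, with 95% intervals from all 9 libraries (black circles) and without control replicate 3 (orange squares); a ring or box marks an adjusted p under 0.05. Tnfaip2 and Gsdmd are marked with FICZ in both fits, Cx3cl1 and Cebpb in the fit without that library alone, and with tryptamine none is.

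The C/EBP factors and SOCS proteins, which act on and restrain interleukin-6 signalling, gave 0 of 4 that passed with all libraries. Cebpb (gene ID 12608), a transcription factor of acute phase genes, stood at 10.5, 11.4 and 34.3 CPM in control, 18.9, 16.1 and 20.1 with FICZ and 20.9, 18.5 and 14.7 with tryptamine. All treated libraries lay above control replicates 1 and 2 and below control replicate 3, which was 3.14-fold over the mean of those controls. With all libraries the change with FICZ was -0.02 ± 0.38 (interval -0.85 to 0.82, adjusted p = 0.99), and without control replicate 3 Cebpb rose by 0.75 ± 0.16 (interval 0.41 to 1.08, adjusted p = 0.0204). With tryptamine the values were -0.04 ± 0.38 (adjusted p = 0.969) and 0.72 ± 0.16 (interval 0.38 to 1.06), the latter short of the threshold (adjusted p = 0.0762). The direction for Cebpb thus depends on 1 library, in which genes with transcripts of 1001 to 2000 nt, such as the 1504 nt of Cebpb, had a median log2 difference of 0.37 over the other controls, against 1.65 for Cebpb. Its neighbour in function Cebpd (gene ID 12609) stood at 4.73, 4.06 and 6.65 CPM in control, 2.85, 3.63 and 3.01 with FICZ and 5.31, 3.4 and 4.45 with tryptamine. Its FICZ libraries lay below all controls, a change of -0.69 ± 0.26 (adjusted p = 0.601), and -0.47 ± 0.27 (adjusted p = 0.609) without control replicate 3. Socs3, the feedback inhibitor of the interleukin-6 receptor, had a change of 0.24 ± 0.15 with FICZ and 0.02 ± 0.15 with tryptamine. Without control replicate 3 these were 0.35 ± 0.14 (adjusted p = 0.369) and 0.14 ± 0.14 (adjusted p = 0.948).

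Of the 4 acute phase proteins, 2 were tested and 0 passed, while Saa1 had 0 counts and Saa3 18 over the 9 libraries. C3 (gene ID 12266), complement component 3, stood at 113.5, 101.4 and 84.4 CPM in control, 115.4, 116.8 and 109.9 with FICZ and 103.7, 117.3 and 98.9 with tryptamine, and the groups overlapped. Its change was 0.19 (interval -0.08 to 0.46) with FICZ and 0.09 (-0.17 to 0.36) with tryptamine. Lcn2, the iron-siderophore binding protein lipocalin 2, stood at 3.52 ± 0.849, 2.58 ± 0.171 and 2.19 ± 0.794 CPM in control, FICZ and tryptamine (SD, n = 3), with changes of -0.44 ± 0.31 and -0.69 ± 0.31 (adjusted p = 0.612 and 0.741).

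As a group the members were centred near 0. With FICZ 19 of the 37 lay above 0 and 18 below, at a median log2 of 0.01, where the median of all 12372 genes was -0.01. The changes ran from -1.64 to 1.55, 30 of 37 lay within 0.5 of 0, and the 95% interval lay within 1 of 0 for 27. With tryptamine 18 lay above 0 and 19 below, at a median of -0.04 against 0.00 for all genes, and 32 lay within 0.5. Before adjustment, 4 members were higher and 4 lower with FICZ at p under 0.05, where 3.52% and 4.6% of all genes were. Ccl17, among those 4 lower, had entered the test through the controls, where it is high. With tryptamine 2 were higher and 2 lower, against 2.18% and 2.97%, and among these Il1r1 (higher) and Ccl17 (lower) had entered the test through the groups where they are high. For FICZ against tryptamine 2 were higher and 0 lower, against 0.703% and 1.03%, and DESeq2's Wald test and limma voom each called 1 member there, Gsdmd. Libraries did not overlap between FICZ and control for 5 members that were higher (Nfkb2, Tnfaip2, Tnfrsf1a, Tnfrsf1b and Gsdmd) and 8 that were lower (Birc2, Cebpd, Csf1, Icam1, Ccl17, Cx3cl1, Traf2 and Vcam1), against 8.21% and 7.4% of all genes tested. For tryptamine these were 3 higher (Tnfaip2, Tnfrsf1b and Gsdmd) and 2 lower (Ccl17 and Traf2), against 5.19% and 4.87%. The same limit holds for Ccl17 in both of these lower counts. The comparisons with control share the controls, so these counts are not independent of each other.

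Without control replicate 3, 3 members rose with FICZ, Tnfaip2, Gsdmd and Cebpb, and Cx3cl1 fell, where 0.574% of 12539 genes rose and 0.231% fell. With tryptamine 0 passed, against 0.183% higher and 0.016% lower, while before adjustment 3 members were higher and 5 lower at p under 0.05, against 3.58% and 3% of genes. DESeq2's Wald test and limma voom called 0 with tryptamine as well. Without that library, 7 members were higher and 4 lower with FICZ before adjustment, against 5.12% and 4.85% of genes, and for FICZ against tryptamine 4 were higher and 1 lower, against 3.01% and 2.96%. Libraries then did not overlap for 9 members higher and 9 lower with FICZ, against 13.8% and 14.1%, and for 7 higher and 5 lower with tryptamine, against 10.2% and 9.83%. Ccl17 was among the members lower with FICZ and with tryptamine in these counts, both before adjustment and by overlap. It had entered the test through the controls, where it is high. FICZ against tryptamine called Gsdmd higher, against 0.12% of genes. For 9 members FICZ and tryptamine libraries did not overlap with all libraries in the fit, higher with FICZ for Nfkb2, Tnfaip2, Tnfaip3, Cxcl16 and Gsdmd, against 5.46% of genes, and lower for Icam1, Nfkb1, Nfkbib and Cx3cl1, against 5.85%. In the authors' deposited tables, which test transcripts, 7 of 40 members with a p passed over control with FICZ, 4 higher and 3 lower. Each member stood there by its most counted transcript. Of all 130882 transcripts with a p, several per gene, 5.61% passed, so the 2 shares are not over like units. Of the 40, Ccl17 passed with tryptamine (1.45% of transcripts) and Gsdmd passed for FICZ over tryptamine (0.0793%).

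**Figure D4:**
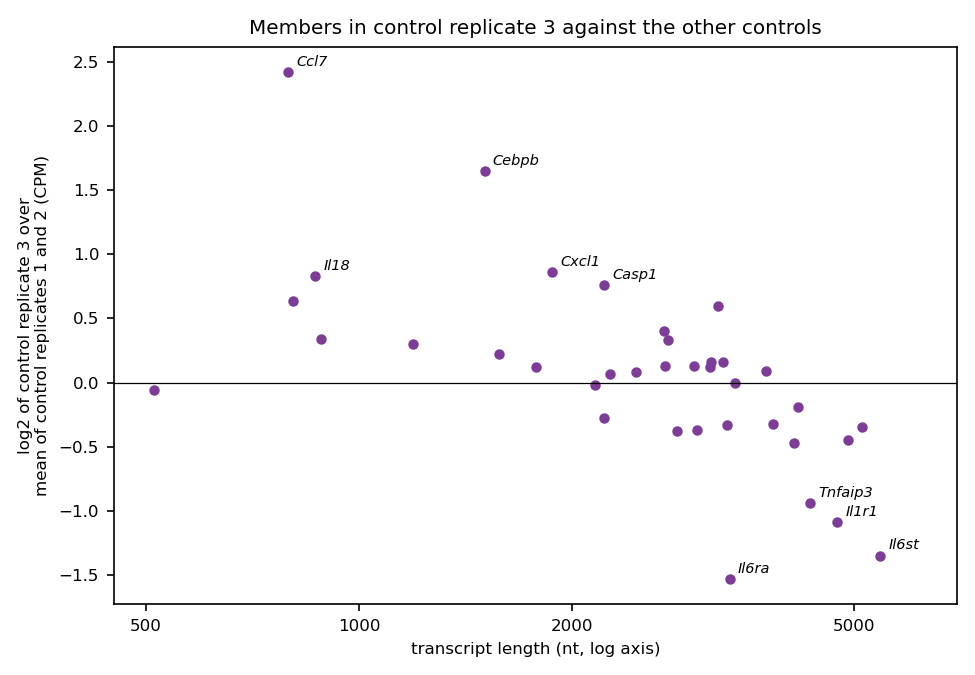
Members in control replicate 3 against the other controls: each point is 1 tested member, with its transcript length in nt on a log axis and the log2 of its CPM in control replicate 3 over the mean of control replicates 1 and 2. Members of up to 1000 nt had a median of 0.64 and those of 3001 to 6000 nt a median of -0.33, with Cebpb, Ccl7, Il6ra and Il6st among the farthest from 0.

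The length pattern of that library runs through the members as it does through all genes, as the plot of log2 ratio against transcript length shows. The median was 0.64 for the 5 members of up to 1000 nt, 0.29 for 5 of 1001 to 2000 nt, 0.10 for 10 of 2001 to 3000 nt and -0.33 for 17 of 3001 to 6000 nt, where all genes tested had 0.63, 0.37, 0.11 and -0.25. Gsdmd and Tnfaip2, which were called in both fits, were close to the other controls in it, at 0.12 and 0.09.

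Other genes of these pathways were taken from 4 lists that hold no member. In the NF-kB signalling list 44 of 49 genes were tested and 0 passed in any comparison, with a median change with FICZ of 0.15, and of 0.06 without control replicate 3. In the acute phase and interleukin-6 list 23 of 44 were tested and 0 passed with all libraries, at a median of 0.08. The median was 0.05 without control replicate 3. Without control replicate 3, Stat3, the transcription factor that the interleukin-6 receptor activates, rose with FICZ by 0.35 ± 0.071 (adjusted p = 0.00899), and was at 0.52 ± 0.14 (adjusted p = 0.567) with it. In the inflammasome and pyroptosis list 12 of 21 were tested and 0 passed in either fit. Its median was 0.01, and -0.04 without control replicate 3. Among other chemokines, cytokines and receptors 20 of 44 were tested and 0 passed with all libraries, at a median of -0.05. The median was 0.06 without control replicate 3. Without control replicate 3, Tnfrsf10b, a TRAIL receptor, rose with FICZ by 0.55 ± 0.085 (adjusted p = 0.000339), and was at 0.70 ± 0.14 (adjusted p = 0.164) with it. With tryptamine 0 genes of the 4 lists passed in either fit. The medians with all libraries were 0.06, 0.00, -0.05 and -0.05 in the same order. They were -0.02, -0.04, -0.04 and 0.01 without control replicate 3.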

How the data were processed

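Read counts per transcript, whole numbers without normalization, were deposited by the authors for 9 libraries, per the file headers. Per the file headers, the same tables give, by transcript, log2 fold changes and p-values (raw and adjusted) that the authors computed, and 2 further lists name genes with higher transcripts. DESeq is named, without its version, per the submitters' processing notes. Aligner, counting rule, strand setting, build and annotation were not given in the sources used here, and reads of overlapping or near-identical genes cannot be told apart.

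The tables list 189660 transcripts. All 9 count columns that occur in more than 1 table were identical between them. The 26853 transcripts without a gene ID, which held 3.56 to 4.23% of the counts, were left out. A sum over transcripts came to 5.37 to 5.62 times the total used here, so the transcript with the highest mean count stood for each gene.

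All 9 libraries were fitted together in edgeR 4.0.16 (R 4.3.3) by quasi-likelihood. Scaling was by TMM, genes were filtered by filterByExpr (minimum count 10), and the model held group alone. Passed, rose and fell mean a Benjamini-Hochberg adjusted p under 0.05 over all genes tested. SE was taken as the log2 change over the root of the F statistic. For CPM, a library's size is its total over tested genes multiplied by its TMM factor. The count test was tested on simulated data before use. Those data had less spread than the 9 libraries fitted together and no library that stood apart, so they do not check that fit. The members and lists were chosen with earlier results of these data known.

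Described with the value of every library were the markers Tnfaip2, Gsdmd, Ccl17 and Cebpb, members that passed with all libraries or without control replicate 3, members with no overlap between a treatment and control at an unadjusted p under 0.05, and the most abundant member per length of each role. Alternatives were DESeq2 1.42.0 size factors and its Wald test, limma 3.58.1 voom with sample weights, no filter, a floor of 10 counts throughout a group, the 6 libraries of a pair, the replicate number as a block, sums over transcripts, transcript length offsets, and leaving out each library. Promoter windows came from a RefSeq table of GRCm38.p6.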

Additional observations from a re-analysis of the deposited data

How the results depend on the processing

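Over 18 alternatives, the log2 change with FICZ stayed between 1.41 and 1.68 for Tnfaip2 and between 0.58 and 0.74 for Gsdmd, while their adjusted p ran from 7.89e-07 to 0.255 and from 1.75e-07 to 0.282. Tnfaip2 passed in 8 of the 18 and Gsdmd in 7. Cebpb with FICZ turned from -0.02 to 0.75 without control replicate 3, and ran from -0.31 to 0.75 when 1 library was left out. Signs over all members were kept in 1881 values and changed in 116, and 26, 18 and 27 of the 37 members kept their sign in every alternative for FICZ, tryptamine and FICZ against tryptamine.

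The members that passed with FICZ, 2 with all libraries, were 0 in the fit to the 6 libraries of the pair, 0 with the replicate block, 0 with sums over transcripts, 3 with voom, where Cx3cl1 passed too, 0 to 4 when 1 library was left out, and 2 in each other alternative. For FICZ against tryptamine they were 1 instead of 0 in the pair's 6 libraries, 1 with DESeq2's Wald test and 1 with voom, and 0 to 1 when 1 library was left out. With tryptamine 0 passed in every alternative.

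Over all genes, the 14 that passed with FICZ became 2 in the pair's 6 libraries, 54 with the Wald test, 119 with voom, 26 without a filter, 4 with the replicate block, 4 with sums and 52 with length offsets, and 4 to 101 when 1 library was left out. The 1 gene for tryptamine became 12 with the Wald test, 19 with voom, 2 without a filter, 2 with sums and 6 with length offsets, and 1 to 25 when 1 library was left out. The 0 genes for FICZ against tryptamine became 17 in the pair's 6 libraries, 10 with the Wald test, 18 with voom and 5 with length offsets, and 0 to 17 when 1 library was left out. The upper end of each leave-one-out range is the fit without control replicate 3, and the cause of the changes was not tested.

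With the replicate block Tnfaip2 was at 1.57 (adjusted p = 0.115) and Gsdmd at 0.64 (adjusted p = 0.117) with FICZ. The labels do not say what a replicate number shares. Deviations of same-numbered libraries correlated across genes at -0.0701 to 0.149, and those of other pairs at -0.16 to 0.126, so the numbers were not taken as pairs. Depth limits the members with few counts, Ccl17, Ccl7, Il1rn and Il1r1, and the 5 not tested.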
